A study of Homo sapiens with 22 samples.

Results

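The 10 genes described here encode enzymes that make purine and pyrimidine nucleotides: PPAT, GART, PFAS, PAICS, ADSL and ATIC of the purine ring, IMPDH2 of the guanine nucleotide branch, CAD and CTPS1 of pyrimidine synthesis, and HPRT1 of purine salvage. They were taken by gene symbol from the mRNA-seq tables of MOLM-13 and NB4 cells, where all 10 were found among 20411 genes. The study asked what happens in acute myeloid leukemia (AML) cells when FTO, an enzyme that removes N6-methyladenosine from RNA, is lost. MOLM-13, a human AML line, and NB4, a human acute promyelocytic leukemia line, were each treated for 48 hours with 2 μM FP54, a small molecule that recruits the VHL ubiquitin ligase to FTO so that the protein is degraded, or with the solvent DMSO alone. Each treatment of each line had 3 libraries, 12 in all, and no group carried a genetic change made for the study. The other 10 of the 22 samples, m6A-seq and polysome-seq of MOLM-13 cells, were not analysed here.

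Cells build purines stepwise on a ribose phosphate taken from PRPP until inosine monophosphate (IMP) is complete, and IMP is then turned into adenine or guanine nucleotides. Pyrimidines are built as a free ring that is joined to PRPP afterwards, and CTP is made from UTP. Salvage enzymes return free bases and nucleosides to the same pools, and proliferating leukemia cells, which copy DNA and make ribosomal RNA at a high rate, draw on both routes.

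The values are RPKM, reads scaled by the length of the gene and the depth of the library, and are thus relative to the library. Total reads on genes ranged from 16299701 to 17346913 with DMSO and from 5829730 to 19191054 with FP54 in MOLM-13 cells, where FP54 replicate 2 was the shallowest library, and from 20654055 to 22344265 with DMSO and from 10595647 to 13071303 with FP54 in NB4 cells. HOXA9, a homeobox gene typical of MLL-rearranged leukemia, stood at 19.1 to 25.4 RPKM in MOLM-13 and 0.144 to 0.716 in NB4, and MPO, the granule peroxidase of promyelocytes, at 3.29 to 18.1 and 1082 to 2263. The myeloid markers CD33, SPI1 and CEBPA were the higher in MOLM-13. CD33 stood at 30.3 to 36.0 RPKM in MOLM-13 and 12.7 to 14.1 in NB4, and SPI1 at 141 to 185 and 59.2 to 95.5. CEBPA under DMSO stood at 86.4 to 107 and 36.9 to 41.3. The T cell marker CD3E did not exceed 0.201 RPKM in any library and the red cell marker HBB did not exceed 0.145, whereas the epithelial marker EPCAM stood at 7.83 to 11.3 in NB4. In MOLM-13, FTO mRNA had a mean of 1.01 RPKM (SD 0.0767, n = 3) under DMSO and 1.01 (SD 0.118) under FP54, and in NB4 of 2.73 (SD 0.180) and 2.03 (SD 0.0782) (log2 fold change -0.41, limma adjusted p = 0.0119). FP54 acts on the protein, so that FTO mRNA does not check the labels. In MOLM-13, DMSO replicate 2 was the lowest DMSO library for 10 of the 10 genes. FP54 replicate 1 was the lowest FP54 library for 7 of them, and FP54 replicate 3 the highest FP54 library for 9.

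In MOLM-13 cells, 5 of the 9 genes that could be tested fell with FP54: GART, PAICS, ATIC, CTPS1 and HPRT1, to between 36.7% and 57.1% of their DMSO mean. None rose. A gene was called at p below 0.01 and a change of at least 0.5 on the log2 scale, the cutoff of the study's methods, and all 5 also had an adjusted p below 0.05 in limma. Over all 9710 genes tested, 9.04% were called lower and 9.3% higher, and 8.95% and 9.22% when the adjusted p had to be below 0.05. The fitted log2 fold change was below 0 for 9 of 9 genes, against 49.7% of all genes, with a median of -0.97 against 0.00326. IMPDH2 was under the filter, a mean of 1 RPKM over the 6 libraries of a line. In bulk RNA, fewer cells of a type and less RNA per cell cannot be told apart.

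**Figure D1:**
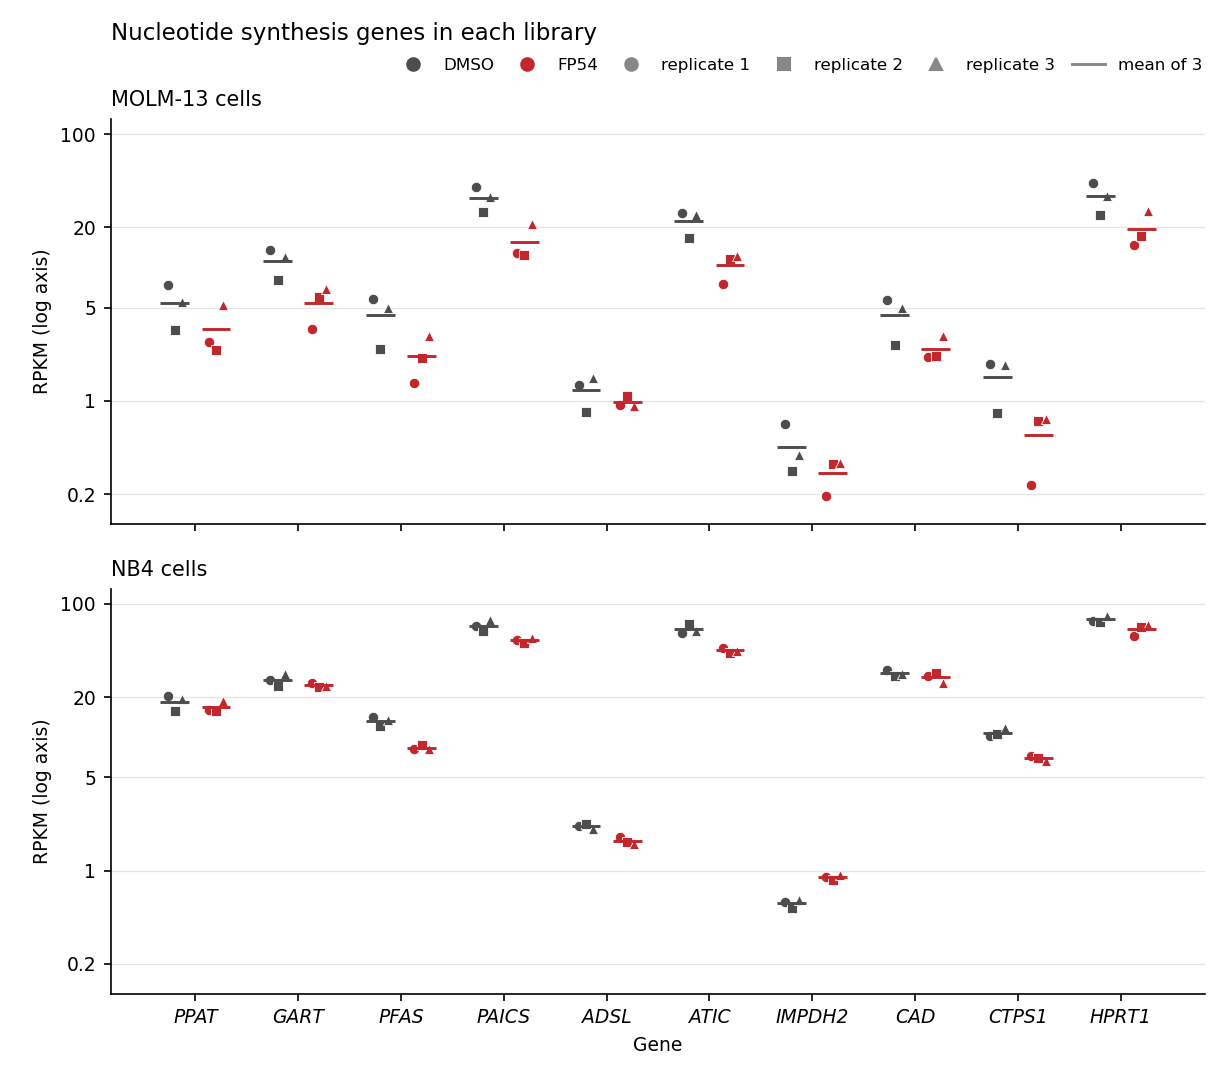
RPKM of the 10 genes (log axis) in each of the 12 libraries, MOLM-13 above and NB4 below, with DMSO in grey, FP54 in red, a symbol for each replicate number and a line at the mean of 3. In MOLM-13, DMSO replicate 2 lies under the other DMSO libraries for all 10 genes; in NB4 the libraries of a treatment lie close together, and IMPDH2 is the gene whose FP54 libraries (0.855 to 0.926) lie above its DMSO libraries (0.522 to 0.603).

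Within the purine ring, PPAT, the amidotransferase that commits PRPP to purines, and PAICS, which carries out the carboxylation and aspartate addition in the middle of the route, are neighbours on chromosome 4 (hg38). PPAT lies on the minus strand at chr4:56393362-56435615 and PAICS on the plus strand at chr4:56435741-56464578, so that their starts face each other across 125 bases. ATIC, which completes IMP, lies on the plus strand at chr2:215311956-215349773. The E-box CACGTG, which reads the same on both strands, was searched in RefSeq promoter windows (GRCh38.p14) of 250 bases before and 50 bases from each start. It was found for PPAT, PAICS and ATIC, 3 of the 8 genes with a window, against 10.9% of 15270 genes. These are the windows in which it was found, shown because PPAT and PAICS share a site and ATIC holds a pair of them, with the E-box in capitals. The site of PPAT, beginning at base -182 from its start on the minus strand (chr4:56435780-56435809), is also that of PAICS. There it begins at base 41 from the RefSeq start on the plus strand. ATIC had a site beginning at base -46 from its RefSeq start (chr2:215312001-215312030, plus strand) and another beginning at base 30 (chr2:215312076-215312105, plus strand). Both lie within the span of ATIC given above.
PPAT and PAICS: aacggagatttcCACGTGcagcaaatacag
ATIC before the start: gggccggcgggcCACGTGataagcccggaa
ATIC after the start: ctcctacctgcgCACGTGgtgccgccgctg
The GC box GGGCGG, searched on both strands, was in the windows of 8 of 8 genes, and in 65.1% of all genes with a window. ADSL and IMPDH2 had no window. A match describes letters and not binding.

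PAICS stood at 40.3, 25.8 and 33.9 RPKM in DMSO replicates 1 to 3 of MOLM-13 and at 12.8, 12.4 and 21.3 in FP54 replicates 1 to 3. Its FP54 libraries all lay below the lowest DMSO library. PAICS fell by 1.12 on the log2 scale of RPKM + 0.1 (SE 0.23; limma adjusted p = 0.0110). PPAT stood at 7.35, 3.40 and 5.52 RPKM with DMSO and 2.75, 2.40 and 5.23 with FP54. Its treatments overlapped, since FP54 replicate 3 was above DMSO replicate 2, and its log2 fold change of -0.65 (95% interval -1.37 to 0.07, adjusted p = 0.180) was not called. Without FP54 replicate 3 it was -0.98 and called.

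ATIC stood at 25.7, 16.6 and 24.8 RPKM with DMSO and 7.55, 11.6 and 12.2 with FP54 in MOLM-13. No FP54 library reached the lowest DMSO library, and ATIC fell by 1.09 (SE 0.22; limma adjusted p = 0.0108). GART, a protein with several activities of the early ring steps, lies on chromosome 21 (chr21:33503931-33543491, minus strand), where its span, but none of its exons, overlaps SON on the other strand. It stood at 13.5, 8.04 and 11.99 RPKM with DMSO and 3.46, 5.997 and 6.84 with FP54. The treatments did not overlap for GART either, and it fell by 1.05 (SE 0.27; limma adjusted p = 0.0241). PAICS, ATIC and GART were called lower in 18 of the 18 alternative fits of MOLM-13 in which they were tested.

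PFAS, the glutamine-dependent synthase of the ring (chr17:8247618-8270491, plus strand), stood at 5.82, 2.46 and 5.00 RPKM with DMSO and 1.37, 2.09 and 3.07 with FP54 in MOLM-13. DMSO replicate 2 fell between the FP54 libraries, and the log2 fold change of -0.97 (SE 0.34; limma adjusted p = 0.0723) missed the cutoff. It was -1.34 and called when DMSO replicate 2 was dropped, and -1.25 and called when FP54 replicate 3 was. ADSL (chr22:40346461-40390463, plus strand), a lyase that works in the ring and again on the way to AMP, stood at 1.31, 0.826 and 1.48 RPKM with DMSO and 0.929, 1.09 and 0.920 with FP54. The treatments overlapped, with a log2 fold change of -0.24 (95% interval -0.79 to 0.31, adjusted p = 0.528). Of the 1452 coding bases of ADSL, 89.9% are shared with the readthrough gene ENSG00000284431, and how shared reads were counted is not given in the sources used here, so that its level is uncertain.

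IMPDH2, which makes the committed step to guanine nucleotides (chr3:49024325-49029447, minus strand), stood at 0.673, 0.299 and 0.394 RPKM with DMSO and 0.193, 0.335 and 0.341 with FP54 in MOLM-13, and these overlapped. The values rest on 10 to 57 reads a library. All 1542 coding bases of IMPDH2 (100.0%) are shared with the readthrough gene ENSG00000290315, which was listed at 0 in every library, and its exons together cover the whole span of 5123 bases, over which reads are averaged. The level of IMPDH2 is therefore uncertain as well. Fitted without the filter, its log2 fold change was -0.48 (SE 0.30; limma adjusted p = 0.363).

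CTPS1, which aminates UTP to CTP (chr1:40979300-41012565, plus strand), had the largest fitted decrease in MOLM-13 among the 9 tested of the 10 genes. It stood at 1.89, 0.811 and 1.86 RPKM with DMSO and 0.235, 0.703 and 0.737 with FP54. FP54 replicate 1 was far below the rest, while FP54 replicates 2 and 3 came close to DMSO replicate 2 without reaching it. CTPS1 fell by 1.33 (SE 0.41; limma adjusted p = 0.0475), but without FP54 replicate 1 its log2 fold change was -0.90 and not called. The call was also lost without the filter on low values and with a pseudocount of 0.01. CTPS1 rested on 49 to 386 reads a library, and without DMSO replicate 1 or 3 it was under the filter. CAD, the multienzyme protein that begins the pyrimidine ring (chr2:27217369-27243943, plus strand), stood at 5.68, 2.62 and 4.98 RPKM with DMSO and 2.14, 2.17 and 3.07 with FP54. Here DMSO replicate 2 was below FP54 replicate 3, and the log2 fold change of -0.77 (SE 0.28; limma adjusted p = 0.0780) missed the cutoff. Without DMSO replicate 2 it was -1.10 and called.

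HPRT1, which salvages hypoxanthine and guanine (chrX:134460165-134520513, plus strand), stood at 43.2, 24.8 and 34.4 RPKM with DMSO and 14.7, 17.2 and 26.6 with FP54 in MOLM-13. FP54 replicate 3 was above DMSO replicate 2, so that the treatments overlapped. HPRT1 fell by 0.81 (SE 0.25; limma adjusted p = 0.0444). The call held in 11 of 18 alternative fits. It was lost without DMSO replicate 1 (-0.63), DMSO replicate 3 (-0.79), FP54 replicate 1 (-0.63) or FP54 replicate 2 (-0.75). It was also lost without both DMSO replicate 2 and FP54 replicate 1, without the filter on low values, and with eBayes without trend. In the study, HPRT1 mRNA was the non-target transcript of the immunoprecipitation of YTHDF2, an RNA-binding protein, where values were taken relative to input.

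The count of called genes in MOLM-13 followed single libraries. It was 3 rather than 5 when DMSO replicate 1, DMSO replicate 3 or FP54 replicate 1 was dropped. It was 7 when DMSO replicate 2 or FP54 replicate 3 was dropped, and 6 without both DMSO replicate 2 and FP54 replicate 1. Over all genes, 878 were called lower, and 545, 462 and 503 without DMSO replicate 1, DMSO replicate 3 or FP54 replicate 1. That number was 1213 without DMSO replicate 2, 1007 without FP54 replicate 3 and 903 without both DMSO replicate 2 and FP54 replicate 1. Values did not overlap between treatments, with FP54 lower, for 4 of the 9 genes, against 17.0% of all genes, and with FP54 higher for none of the 9, against 20.2%. Nothing in the labels says that the libraries came from separate cultures, so that p-values measure the spread between these libraries.

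In NB4 cells, 3 of the 9 tested genes fell with FP54: PFAS, ATIC and CTPS1, to between 63.1% and 69.3% of their DMSO mean, and none rose. Among all 9853 genes tested, 10.7% were called lower and 18.6% higher. The same 3 were called at an adjusted p below 0.05 with the fold cutoff, against 10.7% of all genes lower and 19.1% higher. The log2 fold change was below 0 for 9 of 9 genes, against 44.2% of all genes, with a median of -0.35 against 0.0702. When the libraries were rescaled by the median ratio, the median of all genes moved to -0.13 and that of the 9 genes to -0.54, a difference from all genes of -0.41 beside -0.42 as deposited. The share of all called genes that were higher moved with it from 63.6% to 36.8%, and the number called lower from 1050 to 2010. PAICS (-0.55) and ADSL (-0.54) passed the cutoff, giving 5 of the 9. With quantile normalization that share was 48.4%, and the difference of the 9 genes from all genes was -0.17.

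PFAS stood at 14.1, 12.1 and 13.5 RPKM with DMSO and 8.11, 8.68 and 8.23 with FP54 in NB4, with a wide gap between the treatments, and fell by 0.66 (SE 0.09; limma adjusted p = 0.000233). CTPS1 stood at 10.2, 10.5 and 11.6 RPKM with DMSO and 7.29, 6.94 and 6.69 with FP54, again with no overlap, and fell by 0.62 (SE 0.09; limma adjusted p = 0.000365). PFAS and CTPS1 were called in 17 of 17 alternative fits of NB4. ATIC stood at 60.6, 70.2 and 62.6 RPKM with DMSO and 46.9, 42.5 and 44.6 with FP54. It fell by 0.53 (SE 0.09; limma adjusted p = 0.000564), close to the cutoff of 0.5, and the call was lost when DMSO replicate 2 (-0.46) or FP54 replicate 2 (-0.49) was dropped and with quantile normalization (-0.37).

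PAICS stood at 68.0, 62.1 and 75.5 RPKM with DMSO and 53.8, 50.9 and 55.7 with FP54 in NB4. The treatments did not overlap, and the log2 fold change of -0.35 had an adjusted p of 0.00791 but was under the fold cutoff. ADSL stood at 2.18, 2.23 and 2.04 RPKM with DMSO and 1.79, 1.63 and 1.58 with FP54, and HPRT1 at 74.7, 73.2 and 81.2 with DMSO and 57.1, 66.5 and 69.6 with FP54. Neither overlapped, and both were under the fold cutoff, at -0.35 (adjusted p = 0.0315) and -0.25 (adjusted p = 0.0463). Lower values without overlap were thus seen for 6 of the 9 genes, against 26.2% of all genes, and higher values for none of the 9, against 34.3%.

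PPAT, GART and CAD, which include the entry enzymes of both routes, showed overlapping treatments in NB4. PPAT stood at 20.5, 15.8 and 19.2 RPKM with DMSO and 15.9, 15.7 and 18.6 with FP54 (log2 fold change -0.14, 95% interval -0.39 to 0.11). GART stood at 27.0, 24.01 and 30.04 with DMSO and 25.7, 23.9 and 24.1 with FP54 (-0.13, -0.34 to 0.08). CAD stood at 32.1, 28.6 and 29.7 with DMSO and 28.6, 30.1 and 25.5 with FP54 (-0.10, -0.31 to 0.10). Each interval spans 0 and stops short of a decrease of 0.5, but this depended on the scaling. With median-ratio scaling the log2 fold changes were -0.34 (-0.57 to -0.11) for PPAT, -0.33 (-0.55 to -0.11) for GART and -0.30 (-0.51 to -0.09) for CAD, with adjusted p of 0.0173, 0.0163 and 0.0180 in limma, still under the fold cutoff.

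IMPDH2 went the other way in NB4, at 0.586, 0.522 and 0.603 RPKM with DMSO and 0.903, 0.855 and 0.926 with FP54, where every FP54 library was above every DMSO library. It was under the filter, and without it the log2 fold change was 0.57 (SE 0.14; limma adjusted p = 0.0105). In that fit 27.9% of 17790 genes were called higher, which was 82.0% of all calls, and the median of all genes was 0.239. Read numbers were 57 to 69 with DMSO and 49 to 62 with FP54. The mean level of 415 olfactory receptor genes, which are known from the nasal epithelium, was 0.00169 to 0.00373 RPKM in the DMSO libraries of NB4 and 0.0497 to 0.0548 in the FP54 libraries. Its part in the IMPDH2 difference was not tested.

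**Figure D2:**
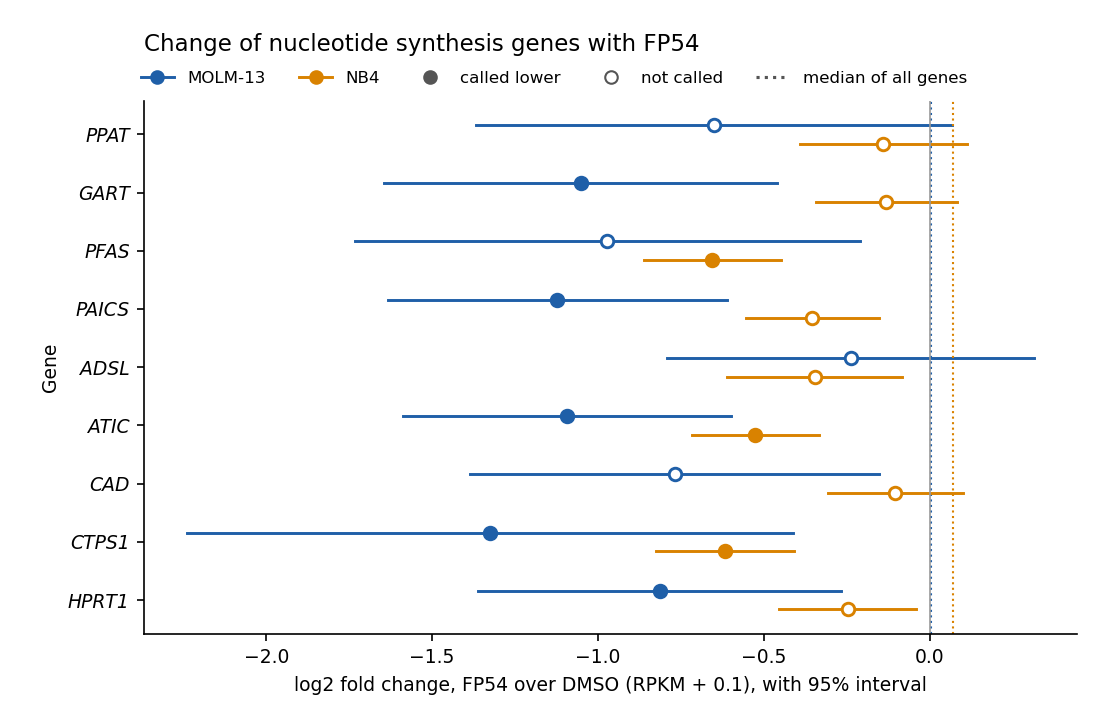
Log2 fold change (FP54 over DMSO, RPKM + 0.1) of the 9 tested genes with its 95% interval from limma, MOLM-13 in blue and NB4 in orange, with filled circles for genes called lower and dotted lines at the median of all genes tested. All 18 estimates lie below 0, and the MOLM-13 intervals are the wider.

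Whether the lines responded differently was tested as an interaction over the 12 libraries, on 8849 genes tested in both lines. At an adjusted p below 0.05, 0 of the 9 genes passed, against 14.2% of all genes, and 3 had an unadjusted p below 0.05 in limma. With limma-voom on recovered reads, 1 passed. The decrease was smaller in NB4 for 8 of the 9 genes, where 58.1% of all genes had a difference above 0, and the median difference (NB4 minus MOLM-13, log2) was 0.57 against 0.0828. The smallest adjusted p was that of GART, with a difference of 0.92 (95% interval 0.25 to 1.59, adjusted p = 0.0650), followed by PAICS with 0.77 (0.19 to 1.35, adjusted p = 0.0753). For PFAS the difference was 0.32 (-0.53 to 1.17) and for ADSL -0.11 (-0.65 to 0.44). The interval for PFAS holds a difference of 0.5 in either direction. When DMSO replicate 2 of both lines was left out, 3 genes passed, GART (1.06), ATIC (0.83) and CAD (0.96), and when FP54 replicate 3 was left out, 2 passed, GART (1.13) and PAICS (0.99).

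Summed over the 10 genes, RPKM was 145, 85.7 and 124 in DMSO replicates 1 to 3 of MOLM-13 and 46.1, 56.1 and 80.4 in FP54 replicates 1 to 3, and every FP54 library was below every DMSO library. The mean went from 118 ± 30.3 (SD, n = 3) to 60.8 ± 17.6, which is 51.3%. In NB4 the sum went from 312 ± 13.4 to 250 ± 5.05, which is 80.2%.

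Without FP54, the 10 genes were higher in NB4 than in MOLM-13. The tables were normalised separately, so that these levels are set side by side with no test. CTPS1 differed the most, at 7.08 times its MOLM-13 mean (10.8 against 1.52 RPKM), followed by CAD at 6.80 times (30.1 against 4.43). The ring genes stood at 3.42 times (PPAT), 2.99 times (PFAS), 2.88 times (ATIC), 2.42 times (GART), 2.06 times (PAICS) and 1.78 times (ADSL), HPRT1 at 2.24 times and IMPDH2 at 1.25 times. The DMSO libraries of the lines did not overlap, with NB4 higher, for 9 of the 10 genes, IMPDH2 being the exception, against 41.8% of the 8849 genes tested in both lines. The median ratio of the 10 genes was 2.65, against 1.08 over those 8849 genes.

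Per length, the order of the DMSO levels began with HPRT1, PAICS and ATIC in both lines. In MOLM-13, HPRT1 (34.1 ± 9.18 RPKM, SD, n = 3) and PAICS (33.3 ± 7.25) overlapped. PAICS lay above ATIC (22.4 ± 5.01), which lay above GART (11.2 ± 2.83). HPRT1 overlapped with ATIC, since its lowest DMSO library was at 24.8 RPKM and the highest of ATIC at 25.7. PPAT (5.42 ± 1.98), CAD (4.43 ± 1.60) and PFAS (4.42 ± 1.75) overlapped with their neighbours in the order, as did CTPS1 (1.52 ± 0.615) and ADSL (1.20 ± 0.337), and IMPDH2 (0.455 ± 0.194) was the lowest. In NB4, HPRT1 (76.3 ± 4.23), PAICS (68.6 ± 6.73) and ATIC (64.5 ± 5.04) overlapped with their neighbours in the order, as did CAD (30.1 ± 1.84) and GART (27.0 ± 3.01). PPAT (18.5 ± 2.43), PFAS (13.2 ± 1.02), CTPS1 (10.8 ± 0.769), ADSL (2.15 ± 0.0992) and IMPDH2 (0.570 ± 0.0425) followed without overlap.

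Several of these enzymes have a paralogue that carries out the same reaction, and a share within a library does not move with library scaling. CTPS1 made up 41.9%, 28.4% and 44.2% of the summed RPKM of CTPS1 and CTPS2 in the DMSO libraries of MOLM-13 and 7.41%, 21.2% and 19.1% in the FP54 libraries. The treatments did not overlap, with a mean of 38.2% ± 8.53 (SD, n = 3) against 15.9% ± 7.46 (exact permutation test, two-sided p = 0.1, the smallest that 3 against 3 can give). In NB4 the same share went from 82.9% ± 1.81 to 74.8% ± 1.51 (n = 3), also without overlap (exact p = 0.1). Over the 6 shares tested, both had an adjusted p of 0.15. CTPS2 itself went from 2.34 ± 0.291 to 2.89 ± 0.257 RPKM in MOLM-13 (log2 fold change 0.30, 95% interval -0.10 to 0.69) and from 2.23 ± 0.310 to 2.35 ± 0.107 in NB4 (0.08, -0.21 to 0.37), and was not called in either line.

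IMPDH1, the paralogue of IMPDH2, was the more abundant of that pair by the deposited values, at 15.6 ± 2.73 RPKM with DMSO and 14.8 ± 1.99 with FP54 in MOLM-13, and 54.8 ± 3.92 and 33.7 ± 0.268 in NB4. It fell in NB4 (log2 fold change -0.70, SE 0.08; limma adjusted p = 6.24e-05). The IMPDH2 share overlapped between treatments in MOLM-13, at 2.78% ± 0.769 and 1.98% ± 0.741 (SD, n = 3; exact permutation p = 0.4). In NB4 it did not, at 1.04% ± 0.136 and 2.59% ± 0.0956 (exact permutation p = 0.1), and the counting limit on IMPDH2 applies to both. The share of PRPS1 in PRPS1 and PRPS2, the enzymes that make PRPP, overlapped in MOLM-13 at 36.7% ± 5.56 and 38.5% ± 0.370 (exact permutation p = 1), and went from 49.4% ± 2.33 to 44.1% ± 1.80 in NB4 without overlap (exact permutation p = 0.1).

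**Figure D3:**
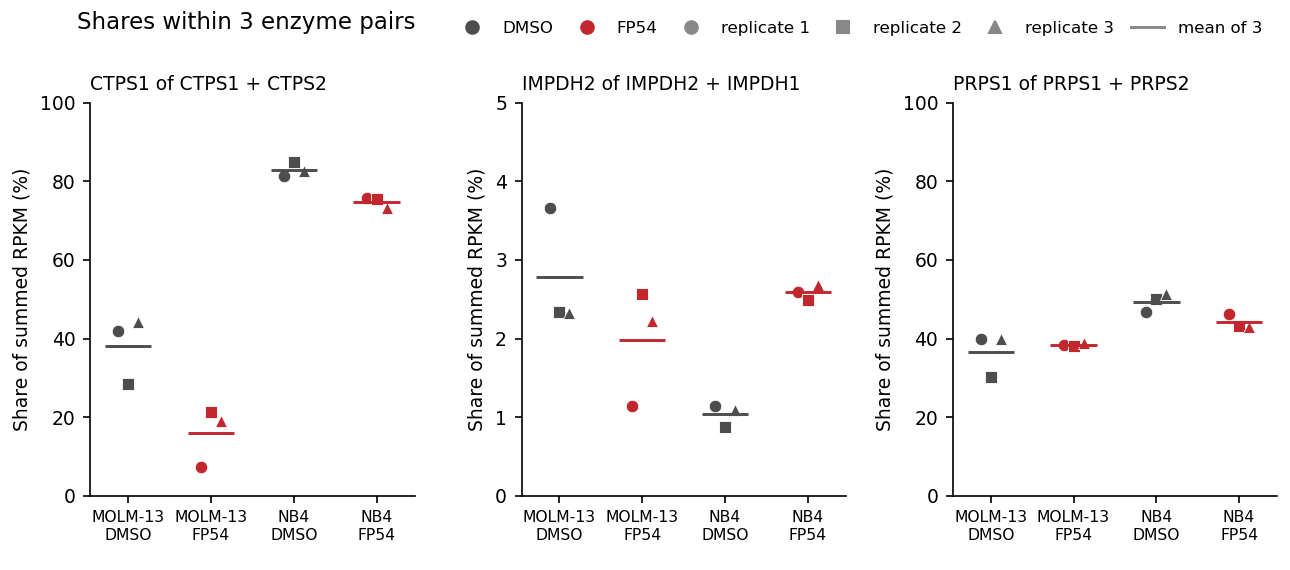
Share (%) of the first gene of each enzyme pair in the summed RPKM of the pair, by cell line and treatment, with a point for each library and a line at the mean of 3; the axis of the IMPDH2 pair ends at 5% and the other axes at 100%. The CTPS1 share lies lower with FP54 in both lines, and the IMPDH2 share lies higher with FP54 in NB4 and overlaps in MOLM-13.

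The spread of the 10 genes between the MOLM-13 libraries was common to nearly all of them. DMSO replicate 1 was the highest of the 6 libraries for 9 genes, FP54 replicate 1 was the lowest for 7, and FP54 replicate 3 was the highest FP54 library for 9. MYC, a transcription factor gene listed as context because it is known to drive nucleotide synthesis genes, stood at 56.5, 13.8 and 40.2 RPKM with DMSO and 5.91, 11.8 and 18.8 with FP54, and the 6 libraries had the same order for MYC as for the mean of the 10 genes, from DMSO replicate 1 through DMSO replicate 3, FP54 replicate 3, DMSO replicate 2 and FP54 replicate 2 to FP54 replicate 1. Its log2 fold change of -1.52 (SE 0.50; limma adjusted p = 0.0567) missed the cutoff, with DMSO replicate 2 inside the FP54 range. In NB4, MYC stood at 133, 142 and 125 RPKM with DMSO and 75.8, 67.9 and 65.0 with FP54. It fell by 0.94 (SE 0.09; limma adjusted p = 1.62e-05). The order of the libraries differed there. MYC was highest in DMSO replicate 2, where the mean of the 10 genes was the lowest with DMSO. On the log2 scale centred within the line, that mean was 0.0537 in DMSO replicate 2 and 0.181 in DMSO replicate 3. Whether MYC had a part in these changes was not tested.

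**Figure D4:**
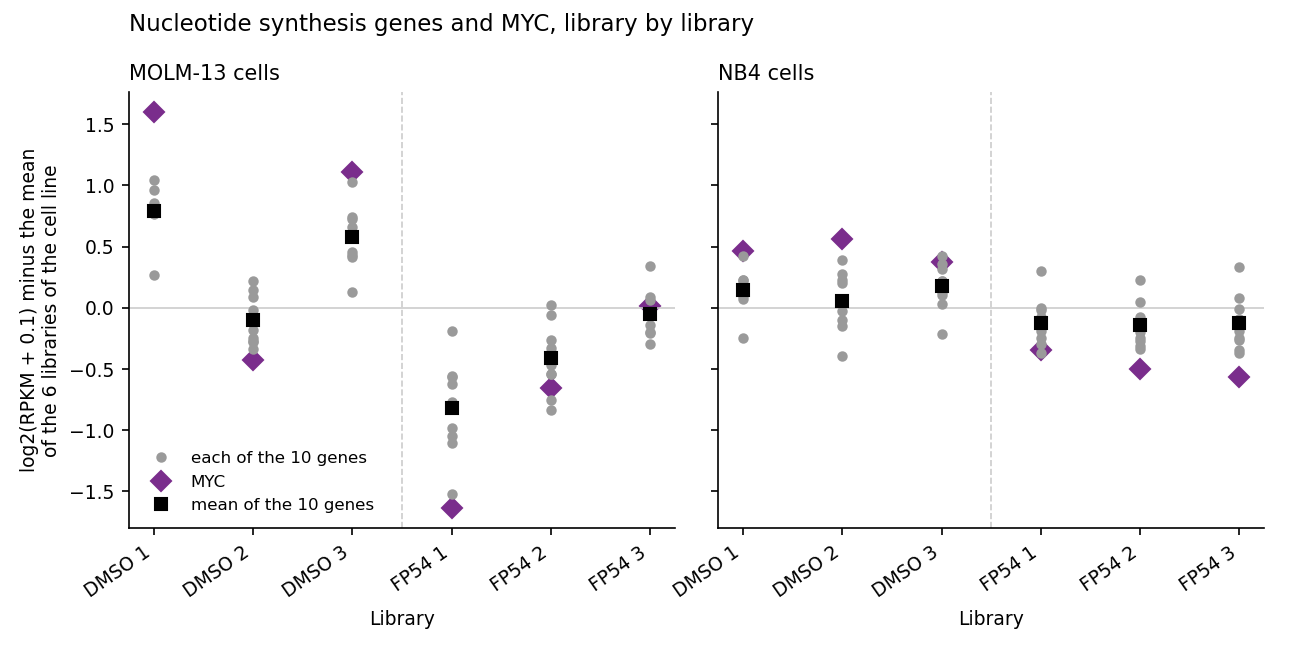
Log2(RPKM + 0.1) of each of the 10 genes (grey), their mean (black squares) and MYC (purple diamonds) in each library, less the mean over the 6 libraries of the line. In MOLM-13 the mean of the 10 genes runs from 0.79 in DMSO replicate 1 to -0.82 in FP54 replicate 1, and in NB4 it stays between -0.14 and 0.18.

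Centred within each line, the genes outside these lists whose log2 values followed the mean of the 10 genes most closely over the 12 libraries were POLR1A, the catalytic subunit of RNA polymerase I (Pearson r = 0.9933), PCCB (0.9924), TXN (0.9879), NIP7 (0.9847) and SEH1L (0.9846). The 10 genes themselves, each part of that mean, ranged from 0.5985 (IMPDH2) to 0.971 (HPRT1), and MYC was at 0.9702. Within MOLM-13, where the libraries spread more widely, they ranged from 0.718 (ADSL) to 0.994 (PFAS). Within NB4 the correlation was -0.878 for IMPDH2, 0.547 for CAD, 0.638 for PPAT and 0.760 to 0.977 for the other 7. These are descriptions over libraries that share the treatment and, in MOLM-13, a spread common to nearly all of the 10 genes. POLR1A fell by 1.49 in MOLM-13 (limma adjusted p = 0.0326), and its log2 fold change was -0.36 in NB4 (adjusted p = 0.0206). It had been picked for following that mean in these same libraries, which favours a decrease, so that its p-values are not a separate test.

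Of 64 other genes of nucleotide metabolism, 57 were tested in each line. In MOLM-13, 9 fell (15.8%) and 6 rose, against 9.04% of all genes called lower and 9.3% higher. In NB4, 10 fell (17.5%) and 8 rose, against 10.7% lower and 18.6% higher. The median log2 fold change was -0.15 in MOLM-13 and -0.04 in NB4. Their median and their balance of directions were thus closer to those of all genes than were those of the 10 genes. In NB4, however, their calls leaned lower, whereas those of all genes leaned higher. Calls in MOLM-13 numbered 9 rather than 15 without DMSO replicate 1 or without FP54 replicate 1, and 24 without DMSO replicate 2. Over all genes, calls numbered 1781, and 1239, 1043 and 2149 without DMSO replicate 1, FP54 replicate 1 or DMSO replicate 2.

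In PRPP supply, which feeds both routes, PRPS2 fell in MOLM-13 from 16.4 ± 2.36 to 10.997 ± 1.94 RPKM (log2 fold change -0.57, limma adjusted p = 0.0445), and PRPS1 fell in NB4 from 26.3 ± 3.24 to 17.7 ± 1.64 (-0.56, adjusted p = 0.00170). In pyrimidine synthesis, between the steps of CAD and CTPS1, DHODH and UMPS fell in NB4, DHODH from 5.35 ± 0.403 to 3.62 ± 0.132 RPKM (-0.55, adjusted p = 0.00134) and UMPS from 11.99 ± 0.550 to 7.85 ± 0.208 (-0.60, adjusted p = 0.000255). In MOLM-13, UMPS was at -0.34 (95% interval -0.77 to 0.08) and DHODH was under the filter. Together with CTPS1, these were 3 genes of the route that fell in NB4, where CAD was not called.

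Beyond IMP, ADSS1, an adenylosuccinate synthase, rose in MOLM-13 from 9.60 ± 1.53 to 19.0 ± 3.01 RPKM (log2 fold change 0.98, limma adjusted p = 0.00609). In NB4 it was under the filter, at 0.0731 ± 0.00528 RPKM with DMSO and 0.386 ± 0.0704 with FP54, without overlap. Of the 4 other genes of the adenine and guanine branches tested in MOLM-13, ADSS1 included, 3 had a log2 fold change below 0. Of these 4, 1 was called lower and 1 higher, against 9.04% and 9.3% of all genes. In salvage, PNP, the purine nucleoside phosphorylase that yields the bases HPRT1 uses, fell in both lines. It stood at 21.3, 13.4 and 20.9 RPKM with DMSO and 4.73, 7.33 and 8.53 with FP54 in MOLM-13 (log2 fold change -1.43, adjusted p = 0.00543) and at 44.4, 45.3 and 47.9 with DMSO and 14.4, 15.2 and 14.1 with FP54 in NB4 (-1.65, adjusted p = 1.89e-07). UPP1, a uridine phosphorylase, rose in NB4 from 1.91 ± 0.149 to 4.52 ± 0.294 RPKM (1.20, adjusted p = 1.59e-05).

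Among nucleotide kinases, NME1 fell in both lines, by 1.80 in MOLM-13 (limma adjusted p = 0.0238) and by 0.78 in NB4 (adjusted p = 0.000174), although 18.7% of its exon bases are shared with a readthrough gene. AK4, a mitochondrial adenylate kinase, rose in NB4 from 1.30 ± 0.243 to 3.55 ± 0.365 RPKM (log2 fold change 1.39, adjusted p = 4.28e-05). In the supply of deoxynucleotides, SAMHD1, which breaks down dNTPs, rose in MOLM-13 from 11.1 ± 0.935 to 17.6 ± 3.27 RPKM (0.65, adjusted p = 0.0224). No gene of the 8 in this group was called in NB4, against 10.7% of all genes lower and 18.6% higher. Values in NB4 nevertheless did not overlap for 4 of the 8 with FP54 lower and for 1 with FP54 higher. Over all genes these shares were 26.2% and 34.3%.

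One-carbon enzymes supply the formyl groups that GART and ATIC add to the ring. In MOLM-13, 3 of 8 tested fell, against 9.04% of all genes, among them MTHFD1L, the mitochondrial formate-releasing synthetase, from 18.8 ± 3.43 to 8.11 ± 1.96 RPKM (log2 fold change -1.21, limma adjusted p = 0.00560). In NB4, 3 of 8 rose, against 18.6% of all genes, among them ALDH1L2, a mitochondrial formyltetrahydrofolate dehydrogenase, from 0.825 ± 0.124 to 6.80 ± 0.868 RPKM (2.90, adjusted p = 2.39e-07), which fell in MOLM-13 from 8.53 ± 1.58 to 4.84 ± 1.43 (-0.84, adjusted p = 0.0342). Among enzymes of breakdown, TYMP, thymidine phosphorylase, rose in both lines, by 0.64 in MOLM-13 (adjusted p = 0.0203) and 1.21 in NB4 (adjusted p = 0.000946), with 19.0% of its exon bases shared with neighbouring genes. UPB1, the ureidopropionase of pyrimidine breakdown, rose in NB4 from 0.764 ± 0.0627 to 1.87 ± 0.370 RPKM (1.18, adjusted p = 0.000194).

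**Figure D5:**
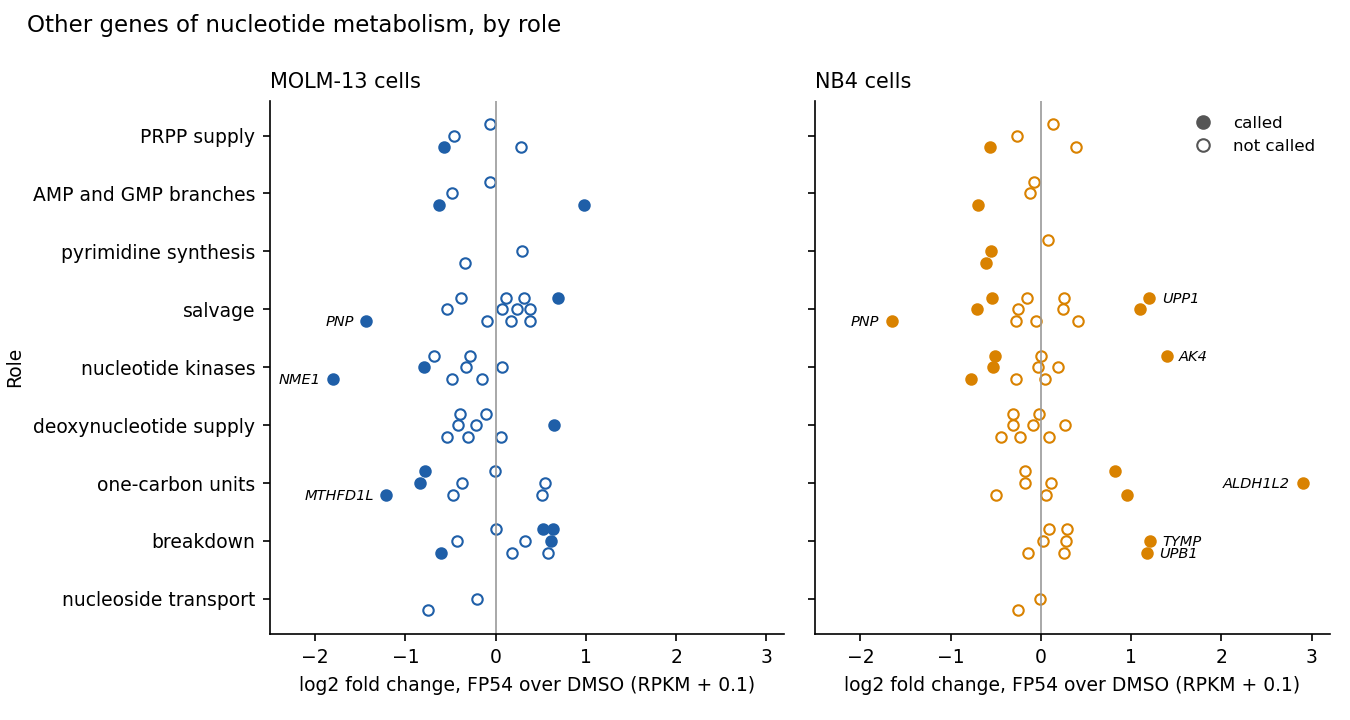
Log2 fold change (FP54 over DMSO, RPKM + 0.1) of the other tested genes of nucleotide metabolism by role, 57 in each line, with filled circles for called genes and names beside called genes beyond 1.1. Open and filled circles lie on both sides of 0 in most roles, and ALDH1L2 lies farthest to the right in NB4 at 2.90.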

How the data were processed

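RNA-seq of 12 libraries (MOLM-13 and NB4, DMSO or FP54, 3 each) was used. The authors selected poly(A) RNA in 2 rounds, made stranded libraries, trimmed reads with Cutadapt 4.8, removed duplicates with Clumpify, aligned to hg38 with STAR 2.7.11b and counted protein-coding GENCODE genes with featureCounts 2.0.3; the strand setting is not given in the sources used here. The deposited values are RPKM made by the authors for 20411 genes. The cell line of the columns rests on the name of their table, for MOLM-13 and for NB4.

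RPKM times GENCODE v44 exon lengths gave whole reads (within 0.05) for 98.7 to 99.3% of values below 30 reads, and these reads give the depths stated. FP54 replicate 2 of MOLM-13 had the fewest, which limits genes with few reads.

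Log2(RPKM + 0.1) was fitted per line with limma 3.58.1 (lmFit, eBayes with trend; R 4.3.3) over genes averaging 1 RPKM or more, with no block. Calls needed p below 0.01 and a log2 change of 0.5 or more in size, and p-values were adjusted by Benjamini-Hochberg over all genes tested. The interaction was 1 model of both lines at an adjusted p below 0.05. Pair shares were tested by exact two-sided permutation. The steps were tested on simulated data. Tables and figures used Python 3.11.15, pandas 2.3.3, numpy 2.4.6 and matplotlib 3.10.9.

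Named were the 10 genes, FTO, MYC, IMPDH1, CTPS2, PRPS1, PRPS2, the 2 called genes of largest change in each role of the other 64 genes, and the 5 genes most correlated with the mean of the 10. The genes, lists and tests were chosen with earlier results of these data known. The alternatives tried were other pseudocounts (0.01 or 1), dropping the filter or raising it to 5 RPKM, median-ratio scaling, quantile normalization, a replicate block, eBayes without trend or robust, limma-voom on the recovered reads, other cutoffs and each library left out. Subtracting the mean olfactory receptor level, and leaving out DMSO replicate 2 with FP54 replicate 1 of MOLM-13, were added after seeing the data.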

Additional observations from a re-analysis of the deposited data

Results flagged for a closer look

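The following genes differed between the lines in their response to FP54, by the interaction in limma over 12 libraries. The values are differences of log2 fold changes, NB4 minus MOLM-13. IMPDH2, tested only without the filter on low values, had a difference of 1.05 (SE 0.33; limma adjusted p = 0.0361), from -0.48 in MOLM-13 to 0.57 in NB4, with the counting limit on this gene. Its paralogue IMPDH1 had a difference of -0.63 (adjusted p = 0.0421), from -0.07 to -0.70. ALDH1L2 had the largest difference among the named genes, 3.74 (adjusted p = 1.45e-06), and MTHFD1L, also of the one-carbon enzymes, had 1.26 (adjusted p = 0.00385). AK4 had 1.68 (adjusted p = 0.00120), UPB1 had 1.18 (adjusted p = 0.00280), UPP1 had 0.81 (adjusted p = 0.0214) and SAMHD1 had -0.96 (adjusted p = 0.00312). In all, 13 of 55 other pathway genes tested in both lines passed, against 14.2% of all genes, and those not named by the rule, chosen after their values were seen, were SHMT2 (1.33), MTHFD2 (1.30), AMPD2 (0.63), ADK (-0.45), ADA (-0.66) and AMPD3 (-0.76). For 5 of the 13, ALDH1L2, SHMT2, MTHFD2, SAMHD1 and ADA, the treatments did not overlap in either line and lay in opposite order. SAMHD1 was not called in NB4, SHMT2 and MTHFD2 were not called in MOLM-13, and ADA was called in neither. The 13 had been selected by the interaction in these same libraries, which favours opposite order. No share over all genes was taken, so that the 5 are a description.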

How the results depend on the processing

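Every fitted fold change of the 9 tested genes kept its direction in every alternative run. In MOLM-13, 5 genes were called, 3 without the filter on low values and 3 to 7 with 1 library left out. Over all genes there, 878 were called lower, 900 without the filter and 462 to 1213 with 1 library left out. In NB4, 1050 of all genes were called lower, 2010 with median-ratio scaling and 995 to 1102 with a library left out. Of the 9 genes there, 3 were called, 5 with median-ratio scaling, and 2 to 3 with a library left out. Past the interaction were 0, but 1 with limma-voom on recovered reads (GART), 1 without the filter (IMPDH2), 2 with quantile normalization (GART and PAICS), and 0 to 3 with a library left out of both lines. Of the other pathway genes, 15 were called in MOLM-13, and 9 to 24 with a library left out. Calls over all genes there were 1781, and 1043 to 2149 with a library left out. In NB4, 18 of the other pathway genes were called, and 11 with a filter at 5 RPKM, which left 44 to test. The cause of these changes was not tested, apart from the smaller number tested. Samples with the same replicate number did not deviate together (correlations -0.26 to -0.06 in MOLM-13 and -0.14 to 0.12 in NB4), so that the numbers do not pair them. Some MOLM-13 libraries of different numbers did. DMSO replicate 1 with FP54 replicate 3 was at 0.59, DMSO replicate 2 with FP54 replicate 1 at 0.49 and DMSO replicate 3 with FP54 replicate 2 at 0.47. The other pairs of different number were at -0.46 to -0.27 in MOLM-13, and all such pairs at -0.26 to 0.22 in NB4. The reason was not tested. With the replicate block, 7 genes were called in MOLM-13 (PFAS and CAD added), 3 in NB4 and 0 past the interaction. Over all genes, 880 were then called lower in MOLM-13 and 1050 in NB4. Shares within enzyme pairs kept their direction with a block. With a library left out, the CTPS1 share changed by -27.1 to -18.0 percentage points in MOLM-13 and -8.88 to -7.09 in NB4. Genes with few reads, such as CTPS1 and IMPDH2 in MOLM-13, are limited by depth.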
